A study of Mus musculus with 4 samples.

Results

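The 9 genes described here encode the kinases, adaptors and phosphatases that act closest to the T cell receptor: *Lck*, *Fyn*, *Csk*, *Lat*, *Lcp2*, *Themis*, *Plcg1*, *Ptpn6* and *Ptpn22*. They were taken by name from the early steps of T cell receptor signalling, by a rule that uses no measured value, although earlier results of these data were known, and all 9 were among the 19339 genes listed in each library. The cells were TCRαβ+CD8αα+ intraepithelial lymphocytes (IELs) of the small intestine, sorted by flow cytometry from C57BL/6 mice as cells positive for CD45, TCRβ and CD8α and negative for CD4 and CD8β. The control mice carried *Kdm6b* fl/fl, in which both copies of *Kdm6b* are flanked by loxP sites and intact. The other mice carried *Kdm6b* fl/fl-CD4Cre, in which Cre driven by *Cd4* regulatory sequences deletes the floxed part in T cells that have expressed *Cd4*, and not in epithelial cells. *Kdm6b* encodes a demethylase of lysine 27 of histone H3. Replicates 1 and 3 of each genotype were analysed, giving 2 libraries per genotype, with 3 mice pooled per library. The ages of the mice are not given in the sources used here.

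When a T cell receptor binds its ligand, the Src family kinases Lck and Fyn phosphorylate the cytoplasmic tails of the CD3 and zeta chains, and the kinase Zap70 docks there and is activated. Zap70 then phosphorylates the membrane adaptor Lat and the cytosolic adaptor encoded by *Lcp2*, which assemble the complex that activates phospholipase C gamma (*Plcg1*), the start of the calcium and diacylglycerol branches. Csk phosphorylates the inhibitory tyrosine of Lck and Fyn, the phosphatases encoded by *Ptpn22* and *Ptpn6* dephosphorylate activated kinases and their substrates, and Themis binds the *Ptpn6* product and sets signal strength in developing thymocytes. TCRαβ+CD8αα+ IELs arise from thymic precursors that meet strong self ligands and are known for a muted response to receptor ligation.

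The values were FPKM, fragments counted on a gene after division by its length and by the size of the library, so levels of different genes can be compared per length. FPKM totals ranged from 578491 to 646671 per library, the number of reads is unknown, and no counting error could be given. *Kdm6b* stood at 16.5 and 16.0 FPKM in control replicates 1 and 3, and at 18.2 and 11.1 FPKM in the libraries labelled CD4Cre replicates 1 and 3. It was therefore not lower in the library labelled CD4Cre replicate 1, and a gene-level value does not isolate the floxed part, so libraries are called CD4Cre-labelled below. The labelled cell type was checked against markers. *Cd8a* was between 280.5 and 463 FPKM in the 4 libraries, while *Cd8b1*, the chain that TCRαβ+CD8αα+ cells lack, was at 0 in control replicate 1 and at most 1.64 FPKM. TCRγδ+CD8αα+ IELs lack it too. Their marker *Trdc* was not among the genes listed, so their presence was not checked. *Cd4*, a marker of other T cells of the gut, was at 30.6 and 10.1 FPKM in the control libraries and at 30.5 and 3.17 FPKM in the CD4Cre-labelled ones. Among B cell markers *Cd79b* ranged from 28.4 to 33.5 FPKM and *Cd79a* from 1.75 to 3.53 FPKM, while *Ms4a1* was below 1 FPKM in every library and *Pax5* was at 0 in control replicate 1. The myeloid markers *Csf1r* and *Cd68* ranged from 14.6 to 32.5 and from 21.1 to 45.9 FPKM. *Lyz2*, another marker of that list, was far higher, at 365 and 253 FPKM in the controls. In the CD4Cre-labelled libraries *Lyz2* was at 396 and 626 FPKM. *Itgax*, *Itgam* and *Adgre1* were lower, between 5.04 and 16.3 FPKM.

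All 9 genes were expressed in all 4 libraries, and their levels spanned a wide range. *Lck* was the highest of the 9 in each library, at 915 and 793 FPKM in control replicates 1 and 3 and 753 and 461 FPKM in CD4Cre-labelled replicates 1 and 3. That placed *Lck* at rank 56, 91, 86 and 191 of the 19339 genes by FPKM. *Ptpn22* and *Ptpn6* followed, between 186 and 341 FPKM, and exchanged places between the genotypes by less than the spread between libraries of a genotype. *Lcp2* and then *Lat* came below them in every library. *Fyn* and *Csk* came next and changed places between the replicates, and *Plcg1* and *Themis* were the lowest, with *Themis* above *Plcg1* only in CD4Cre-labelled replicate 1.

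**Figure D1:**
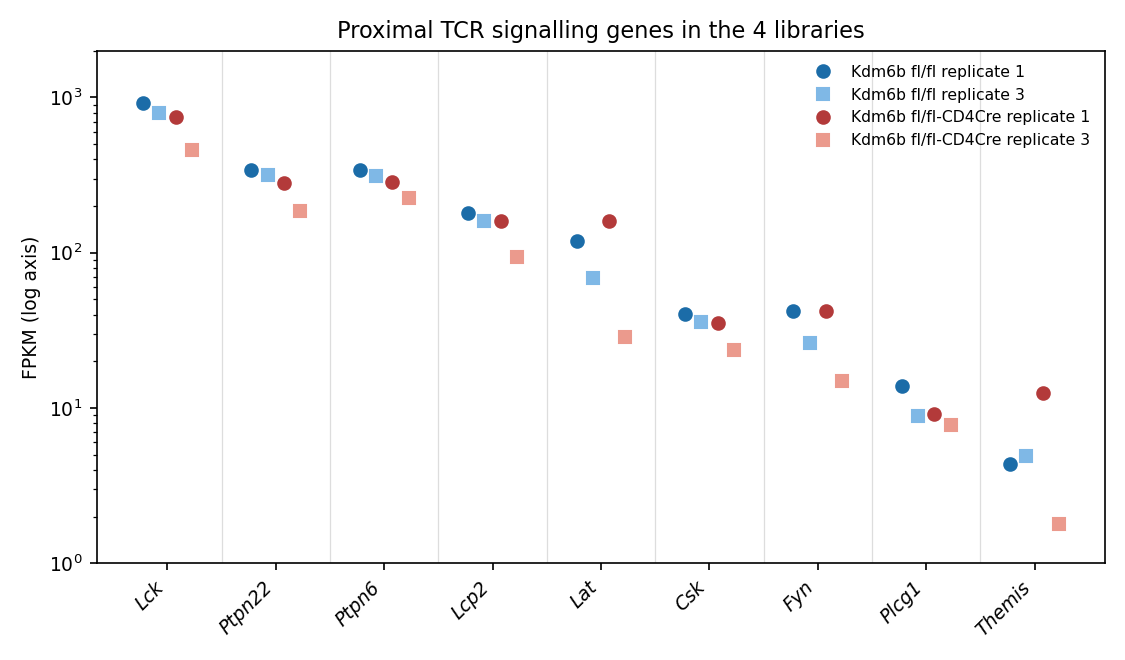
FPKM of the 9 genes on a log axis, with 1 point for each of the 4 libraries. *Lck* is highest in every library, all 9 genes are lowest in CD4Cre-labelled replicate 3, and *Lat* and *Themis* spread most.

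The promoters of 4 starts are shown because they belong to the most abundant member (*Lck*), the most variable (*Themis*) and the low, broadly expressed *Plcg1*. Each line is the 250 bases before a start, from RefSeq on GRCm38.p6 and in the direction of transcription. Capitals mark AGGAAG (the core bound by ETS factors), TGTGGT (the core bound by Runx factors) or GGGCGG (a GC box), or any of the 3 read from the other strand. The windows do not overlap each other, and *Lck* has 2 starts.
Lck farther start, chr4:129573642-129573891, minus strand: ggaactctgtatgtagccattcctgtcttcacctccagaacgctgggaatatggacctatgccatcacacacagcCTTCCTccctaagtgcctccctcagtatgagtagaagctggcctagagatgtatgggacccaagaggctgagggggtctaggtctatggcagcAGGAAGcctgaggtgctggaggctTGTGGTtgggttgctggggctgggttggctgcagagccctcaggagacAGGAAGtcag
Lck nearer start, chr4:129558373-129558622, minus strand: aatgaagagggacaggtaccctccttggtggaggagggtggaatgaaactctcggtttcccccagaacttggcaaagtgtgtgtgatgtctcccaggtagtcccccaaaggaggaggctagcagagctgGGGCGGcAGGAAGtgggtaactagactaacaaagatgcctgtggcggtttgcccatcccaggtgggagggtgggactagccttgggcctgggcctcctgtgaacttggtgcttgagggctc
Themis, chr10:28668110-28668359, plus strand: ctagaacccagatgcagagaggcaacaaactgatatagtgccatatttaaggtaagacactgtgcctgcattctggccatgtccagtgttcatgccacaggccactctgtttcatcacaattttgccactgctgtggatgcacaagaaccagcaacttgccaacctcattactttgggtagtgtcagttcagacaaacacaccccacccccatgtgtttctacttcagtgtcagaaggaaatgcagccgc
Plcg1, chr2:160731060-160731309, plus strand: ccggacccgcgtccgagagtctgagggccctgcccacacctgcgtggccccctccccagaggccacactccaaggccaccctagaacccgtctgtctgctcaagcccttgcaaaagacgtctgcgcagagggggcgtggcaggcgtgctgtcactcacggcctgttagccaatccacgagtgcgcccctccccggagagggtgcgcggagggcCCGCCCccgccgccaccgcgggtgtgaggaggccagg

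The 9 genes had 13 such windows, of which the 2 of *Themis* overlap. AGGAAG was in 8 of the 13, against 29.5% of all 32851 windows of this length, TGTGGT in 2 against 14%, and GGGCGG in 4 against 32.7%. The windows with TGTGGT were the farther start of *Lck* and a start of *Ptpn22*, and neither window of *Themis* held any of the 3 motifs. CpG pairs numbered 21 in the windows of *Fyn* and *Plcg1*, genes made in most tissues, and 16 and 7 in those of *Csk*. There were 0 in that of *Lcp2* and 1 in each of *Themis*, against a median of 6 over all windows. These are letters in the sequence, not measured binding, and gene-level FPKM does not separate the 2 *Lck* starts.

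The question of the comparison was whether loss of *Kdm6b* in T cells went with altered levels of these genes. None of the 9 passed the test between genotypes (limma, Benjamini-Hochberg adjustment over 12009 genes), and none had an unadjusted p under 0.05. Without CD4Cre-labelled replicate 1, 6 of the 9 had an unadjusted p under 0.05, as did 1526 of the 12009 genes, and without CD4Cre-labelled replicate 3, 1 of the 9 and 312 genes had. Limma called 0 genes in both fits, in which the lone CD4Cre-labelled library was assumed to vary like the controls. Among all genes 0% were called, also by limma without a trend, and 642 had an unadjusted p under 0.05. With the level of epithelial markers as a covariate 104 genes were called, with 0 members among them, and 1 member and 1035 genes had an unadjusted p under 0.05. The difference of group means on the log2(FPKM + 1) scale, CD4Cre-labelled minus control, was below 0 for 8 of the 9, against 49.9% of all genes. Both CD4Cre-labelled libraries lay below both controls for 5 (*Lck*, *Lcp2*, *Ptpn6*, *Ptpn22* and *Csk*), against 18.6% of all genes, and above both for 0, against 18.4%. None differed by more than 1 on the log2 scale, against 6.64% of all genes (797, of which 744 were higher and 53 lower, and between 364 and 1577 in all when each library was left out). Without CD4Cre-labelled replicate 1, 3 members did (*Fyn*, *Lat* and *Themis*), and without CD4Cre-labelled replicate 3, 1 did (*Themis*). The median difference of the 9 was −0.39, beside 0.00097 over all genes, and was −0.86 without CD4Cre-labelled replicate 1 and −0.11 without CD4Cre-labelled replicate 3. With 2 libraries per genotype an exact test of a single gene cannot go below p = 0.333, and the p-values measure the spread between pooled libraries.

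The kinase *Lck*, which starts the cascade, lies at chr4:129548344-129573641. Its mean was 854 ± 86.7 FPKM (SD, n = 2) in the controls and 607 ± 207 FPKM (SD, n = 2) in the CD4Cre-labelled libraries. The genotypes did not overlap, but replicate 1 of the CD4Cre-labelled libraries was at 95.0% of control replicate 3 and replicate 3 at 58.1%. The log2 difference was −0.53 (SE 0.30, adjusted p = 0.755, limma). It was −0.88 when CD4Cre-labelled replicate 1 was left out and −0.18 when CD4Cre-labelled replicate 3 was.

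*Fyn*, the other Src family kinase of T cells (chr10:39369743-39565381), was at 42.4 and 26.3 FPKM in the controls and at 42.0 and 15 FPKM in the CD4Cre-labelled libraries. The genotypes overlapped, since the replicates numbered 1 were nearly equal and both above those numbered 3. On the log2 scale the difference was −0.39 (SE 0.51, adjusted p = 0.854, limma) and became −1.10 without CD4Cre-labelled replicate 1 and 0.32 without CD4Cre-labelled replicate 3. *Lck* was 17.9 to 30.7 times as high as *Fyn* per length. Their log2 ratio differed by −0.14 between the genotypes (exact permutation p = 0.667, two-sided), and this difference ranged from −0.50 without CD4Cre-labelled replicate 3 to 0.22 without CD4Cre-labelled replicate 1, with −0.37 and 0.090 without control replicates 1 and 3.

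*Csk*, the kinase that restrains both (chr9:57626646-57653631), was at 40.5 and 35.8 FPKM in the controls and 35.2 and 23.7 FPKM in the CD4Cre-labelled libraries. The genotypes were separated by a small margin, CD4Cre-labelled replicate 1 being at 98.4% of control replicate 3. For *Csk* the log2 difference was −0.38 (SE 0.25, adjusted p = 0.761, limma), and it was −0.66 without CD4Cre-labelled replicate 1 and −0.11 without CD4Cre-labelled replicate 3. *Lck* was 19.4 to 22.6 times as high as *Csk* per length in the 4 libraries.

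The membrane adaptor *Lat* (chr7:126363827-126369705) was at 119 and 68.5 FPKM in the controls and at 159 and 28.9 FPKM in the CD4Cre-labelled libraries. The highest and the lowest of its 4 values were therefore in libraries of the same label, which differed 5.52-fold. The mean was 93.7 ± 35.7 FPKM (SD, n = 2) in the controls and 94.1 ± 92.2 FPKM (SD, n = 2) in the CD4Cre-labelled libraries. Its log2 difference was −0.40 (SE 0.78, adjusted p = 0.905, limma), and became 0.81 without CD4Cre-labelled replicate 3 and −1.61 without CD4Cre-labelled replicate 1.

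The cytosolic adaptor *Lcp2* (chr11:34046928-34092281), which works together with *Lat*, was at 182 and 161 FPKM in the controls and at 160 and 93.7 FPKM in the CD4Cre-labelled libraries. The genotypes did not overlap, with CD4Cre-labelled replicate 1 at 99.4% of control replicate 3. The genotypes differed by −0.48 on the log2 scale (SE 0.28, adjusted p = 0.757, limma), by −0.86 without CD4Cre-labelled replicate 1 and by −0.096 without CD4Cre-labelled replicate 3. The log2 ratio of *Lcp2* to *Lat* was 0.61 and 1.22 in the controls and 0.0041 and 1.67 in the CD4Cre-labelled libraries, so this pair, which acts in 1 complex, did not keep a fixed ratio.

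*Themis* (chr10:28668360-28883820) was the lowest but for CD4Cre-labelled replicate 1, at 4.33 and 4.93 FPKM in the controls and at 12.5 and 1.80 FPKM in the CD4Cre-labelled libraries. The CD4Cre-labelled values lay on either side of both controls and differed 6.93-fold, the widest range of the 9. The log2 difference was 0.13 (SE 0.74, adjusted p = 0.972, limma), the only positive one, and became −1.01 without CD4Cre-labelled replicate 1 and 1.26 without CD4Cre-labelled replicate 3.

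The phospholipase gene *Plcg1* (chr2:160731310-160775760) was at 13.9 and 8.84 FPKM in the controls and at 9.16 and 7.77 FPKM in the CD4Cre-labelled libraries. Only control replicate 1 stood above the other 3. Its log2 difference was −0.36 (SE 0.31, adjusted p = 0.793, limma) and became −0.060 without that library and −0.66 without control replicate 3.

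The phosphatase gene *Ptpn6* (chr6:124720707-124738709) was at 340 and 311 FPKM in the controls and at 287 and 226 FPKM in the CD4Cre-labelled libraries. The genotypes did not overlap, and its range over the 4 libraries, 1.5-fold, was the narrowest of the 9. The log2 difference was −0.35 (SE 0.20, adjusted p = 0.755, limma), and −0.52 and −0.18 without CD4Cre-labelled replicate 1 and 3 respectively. The other phosphatase gene, *Ptpn22* (chr3:103856575-103912252), was at 341 and 317 FPKM in the controls and at 281 and 186 FPKM in the CD4Cre-labelled libraries, which again did not overlap. Its log2 difference was −0.52 (SE 0.25, adjusted p = 0.755, limma), with −0.82 and −0.23 after leaving out CD4Cre-labelled replicate 1 and 3 respectively. The protein of *Ptpn22* binds Csk, and the log2 ratio of their genes, 3.08 ± 0.046 (SD, n = 2) in the controls and 2.94 ± 0.028 (SD, n = 2) in the CD4Cre-labelled libraries, was lower by 0.14 in the latter (exact permutation p = 0.333, two-sided, the smallest possible).

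The 9 genes were all lowest in CD4Cre-labelled replicate 3, and 7 of the 9 were highest in control replicate 1. For 5 the order was control replicate 1, control replicate 3, CD4Cre-labelled replicate 1, CD4Cre-labelled replicate 3. This is 1 of the orders with both CD4Cre-labelled libraries below both controls, which 18.6% of all genes had. The counts of this paragraph were not made over all genes, so they do not show a trait particular to the 9. For 7 of the 9 the CD4Cre-labelled libraries differed from each other by more than the group means did, and for 6 CD4Cre-labelled replicate 1 was within 15% of control replicate 3.

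**Figure D2:**
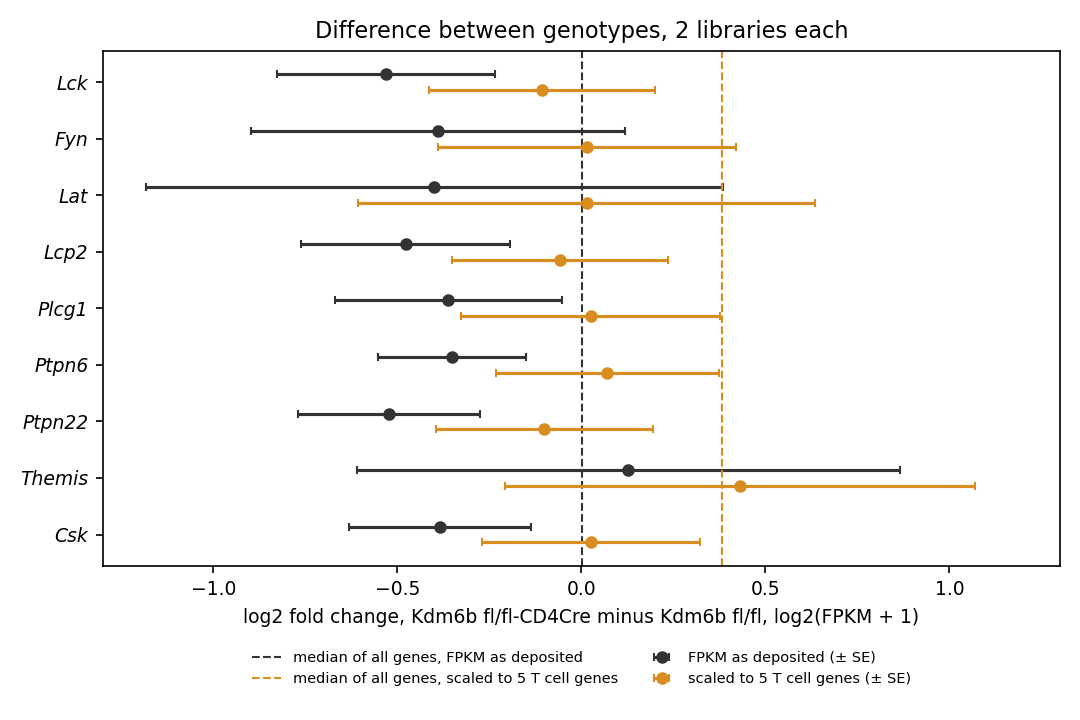
log2 fold change of each gene, CD4Cre-labelled minus control on the log2(FPKM + 1) scale, with its standard error, for FPKM as deposited (black) and after scaling each library to 5 T cell genes (orange); dashed lines are the medians of all genes. As deposited 8 of 9 lie below 0, and after scaling 3 of 9 do, with 8 of 9 below the median of all genes, 0.38.

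Levels of T cell genes also differed between the libraries. The mean log2 FPKM of 5 T cell genes (*Cd3d*, *Cd3e*, *Cd3g*, *Cd247* and *Ptprc*) was 8.77 and 8.5 in the controls and 8.51 and 7.92 in the CD4Cre-labelled libraries, also highest in control replicate 1 and lowest in CD4Cre-labelled replicate 3. All 8 T cell identity genes had negative differences, their summed level being between 6713 and 12235 FPKM. All 22 epithelial markers had positive ones, 19 of them above 1 on the log2 scale, with summed levels of 1411 and 4450 FPKM in the controls and 4111 and 10827 FPKM in the CD4Cre-labelled libraries. In bulk libraries fewer T cells and less of this RNA per T cell cannot be told apart. With the mean level of the epithelial markers as a covariate, the median difference of the 9 was −0.082 and 6 of 9 were negative. When each library was scaled to the 5 T cell genes, the median difference of the 9 went from −0.39 to 0.015 and 3 of 9 were negative, but the median of all genes moved to 0.38 and 8 of 9 members were below it.

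Relative to these 5 genes, the members differed in how much they varied over the libraries. The log2 level of *Csk* relative to their mean stayed between −3.43 and −3.34 in the 4 libraries, a range of 0.093 on the log2 scale, and 0.135% of 11871 genes had a smaller one. As deposited the range of *Csk* was 0.77, and 55.1% of genes had a smaller one. *Ptpn22* (range 0.18), *Lcp2* (0.20), *Lck* (0.20) and *Ptpn6* (0.27) also had small ranges, and ranges up to that of *Ptpn6* were found in 3.43% of all genes. As deposited, between 40.2% and 67.7% of genes had smaller ranges than these 4, so the small ranges held only on the scale relative to T cell genes, on which the median range of all genes was 1.0 instead of 0.704. *Plcg1* had a range of 0.40. *Fyn* ranged over 0.90, below the median of all genes on this scale, but over 1.5 as deposited, where 81.9% of genes had a smaller range. *Lat* ranged over 1.88 and *Themis* over 2.2, above the median. *Lat* stood at −1.88 and −2.40 in the controls and at −1.19 and −3.07 in the CD4Cre-labelled libraries, and *Themis* at −6.66, −6.20, −4.87 and −7.07 in the same order. On this scale *Lat*, *Fyn* and *Themis* were highest in CD4Cre-labelled replicate 1 and lowest in CD4Cre-labelled replicate 3. These ranges were compared after the values were seen, with no test.

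**Figure D3:**
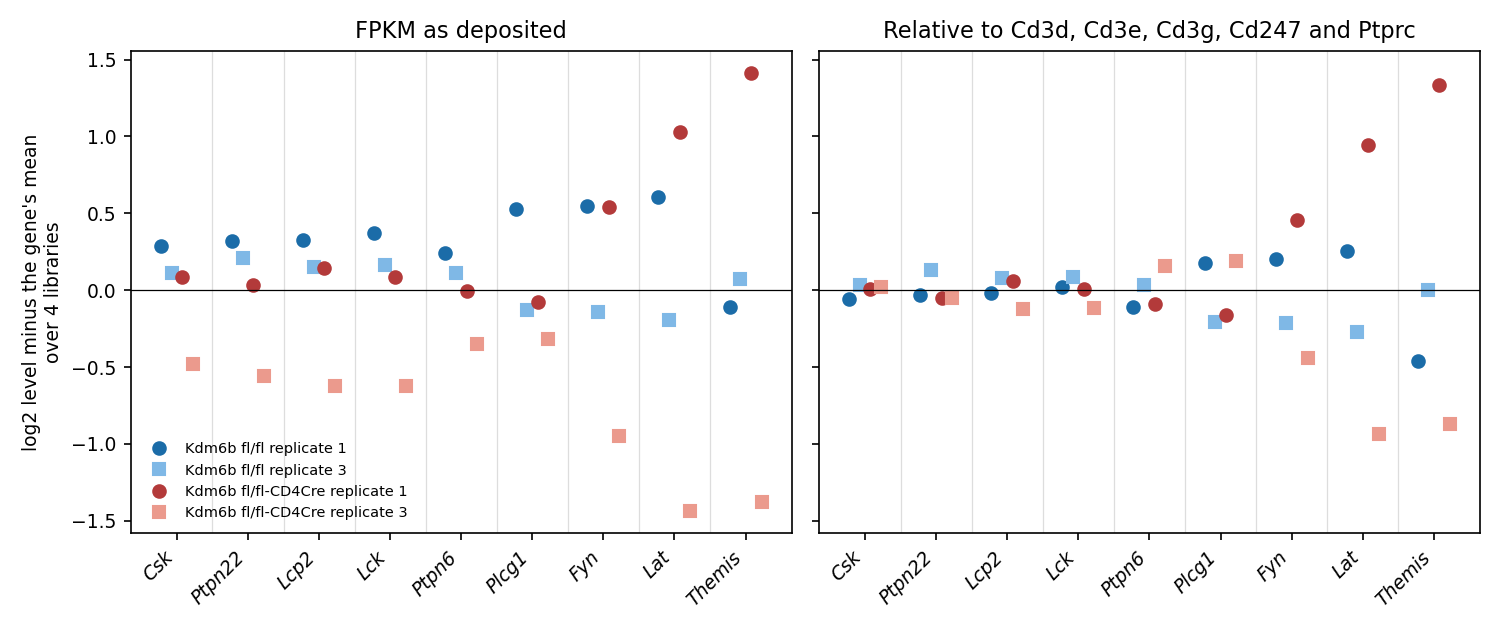
log2 level of each gene minus its mean over the 4 libraries, 1 point per library, from FPKM as deposited (left) and relative to the mean log2 FPKM of 5 T cell genes (right). On the right *Csk*, *Ptpn22*, *Lcp2*, *Lck* and *Ptpn6* lie close together, and *Fyn*, *Lat* and *Themis* spread, with CD4Cre-labelled replicate 1 highest and CD4Cre-labelled replicate 3 lowest.

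Other genes of the pathway were compared on the same scale. Of 62 listed pathway genes outside the 5, 15 (24.2%, against 57.3% of all genes) had a relative range at or above that of *Fyn*, and 11 (17.7%, against 3.43%) at or below that of *Ptpn6*. The 5 scaling genes are themselves of this pathway. Among the 15, 6 were highest in CD4Cre-labelled replicate 1 and lowest in CD4Cre-labelled replicate 3. The largest ranges were those of *Ubash3a* (3.13), a phosphatase family member, and *Sit1* (3.0), an inhibitory membrane adaptor. Next came *Cd5* (2.90) and *Cd6* (2.88), which encode surface receptors that restrain signalling. *Cd5* stood at 37.0, 19.3, 37.9 and 3.38 FPKM and *Sit1* at 40.3, 16.3, 49.1 and 4.09 FPKM in control replicates 1 and 3 and CD4Cre-labelled replicates 1 and 3. *Cd4* varied in the same way, at the values given above, although the gate took cells negative for CD4, and the part of other T cells in this was not tested.

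**Figure D4:**
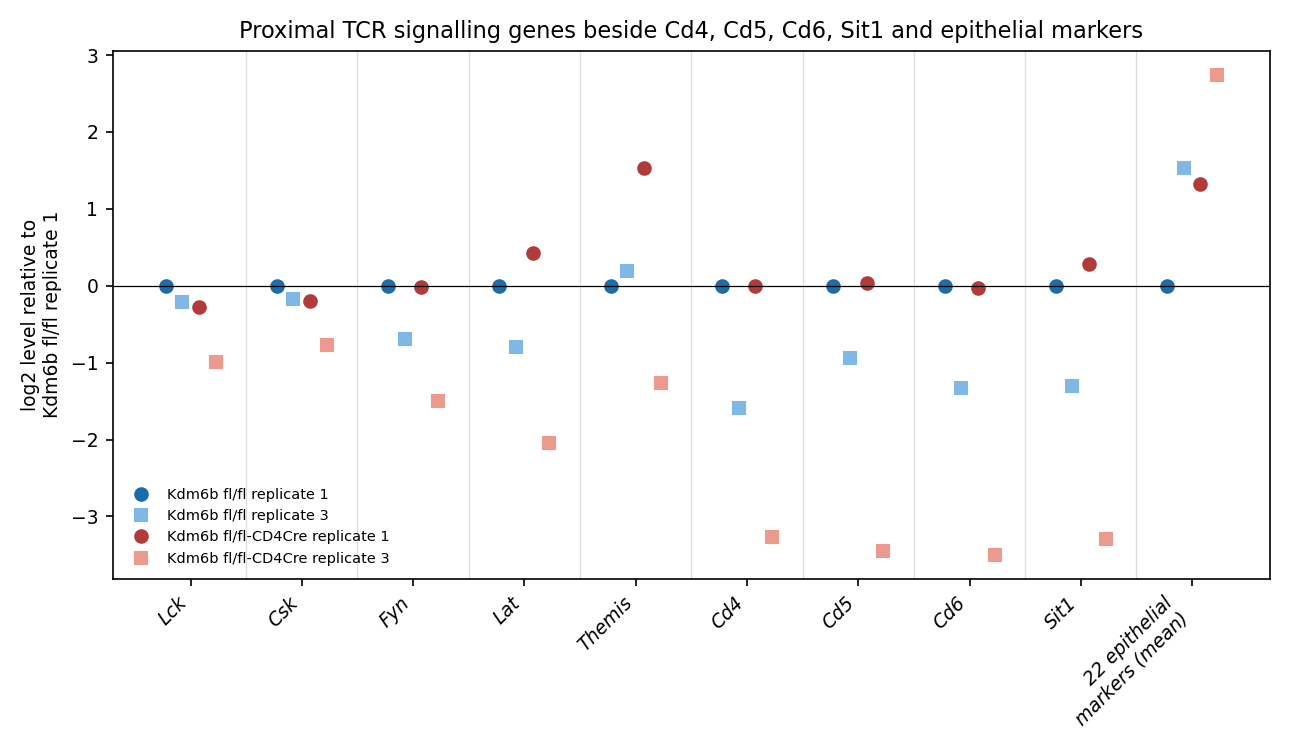
Level in each library on a log2 axis relative to control replicate 1, for *Lck*, *Csk*, *Fyn*, *Lat* and *Themis* beside *Cd4*, *Cd5*, *Cd6*, *Sit1* and the mean of 22 epithelial markers (of log2(FPKM + 1)). *Fyn*, *Lat*, *Cd4*, *Cd5*, *Cd6* and *Sit1* are higher in the replicates numbered 1 than in those numbered 3, and the epithelial markers are highest in CD4Cre-labelled replicate 3. *Lck* and *Csk* are also higher in replicate 1 than in replicate 3 within each genotype, by smaller gaps.

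Close relatives of the members were compared per length. Of the 8 Src family kinases, *Lck* made 86.6% and 87.8% of the summed FPKM in the controls and 84.4% and 82.1% in the CD4Cre-labelled libraries. *Fgr*, a kinase best known from myeloid and natural killer cells, was higher than *Fyn* in 3 of 4 libraries, at 33.9 to 53.8 FPKM, and *Lyn* was at 23.8 to 36.1 FPKM. *Plcg2*, the phospholipase of B cells and natural killer cells, was 3.37 to 5.69 times as high as *Plcg1* in all 4 libraries. *Themis2*, the relative of *Themis* used in B cells and macrophages, was 1.69 to 7.72 times as high as *Themis* in all 4. *Lat2*, an adaptor of B cells, mast cells and natural killer cells, was above *Lat* in 3 of 4, and *Matk*, a kinase related to *Csk*, was at 0.871 to 1.12 times *Csk*. *Ptpn6* was 26.0 to 38.3 times as high as *Ptpn11*, its relative of most tissues. Beside these, 6 of 7 myeloid markers had positive differences and 1, *Fcer1g*, a receptor chain also made in natural killer cells and some IELs, had −0.54. *Fcer1g* stood at 1785 and 1367 FPKM in the controls and 1357 and 852 FPKM in the CD4Cre-labelled libraries. It made up most of the summed level of the 7, which was 2232 and 1679 FPKM in the controls and 1863 and 1566 FPKM in the CD4Cre-labelled libraries, so the sum ran against the other 6. Which cells of the sort made these relatives was not tested.

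**Figure D5:**
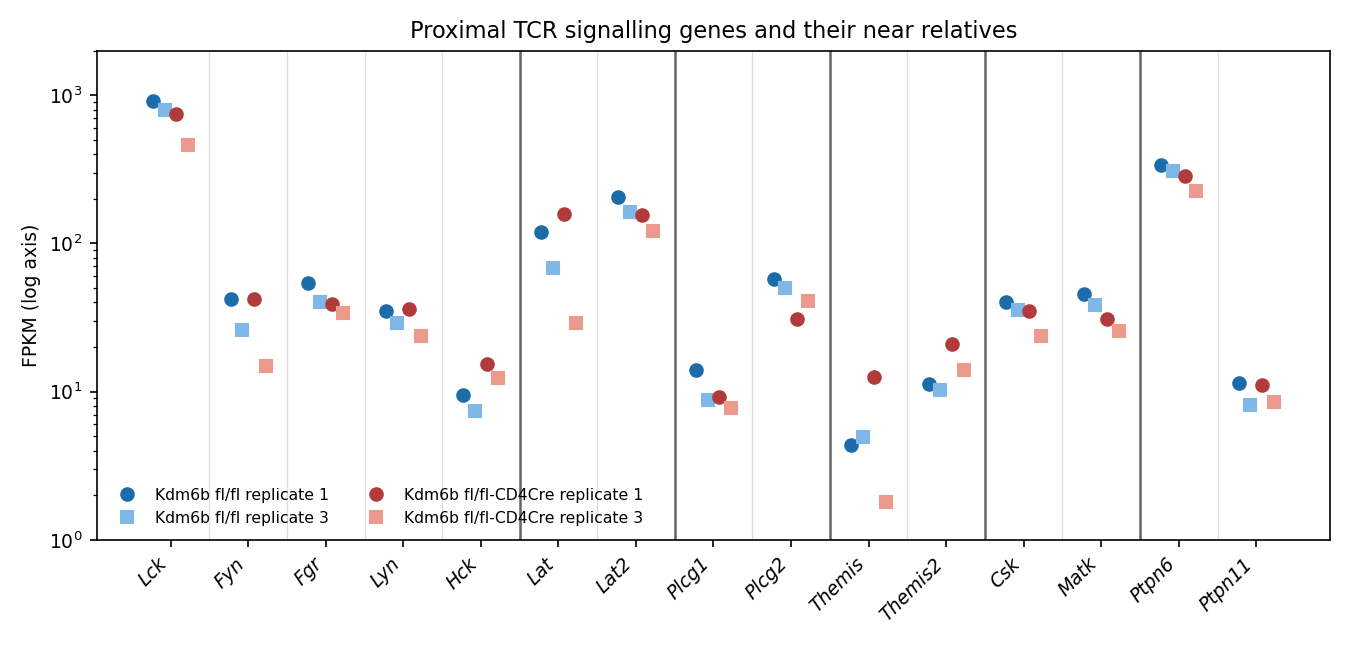
FPKM on a log axis of members and of their close relatives, 1 point per library. *Lck* exceeds the other Src family kinases in every library, and *Plcg2* and *Themis2* lie above *Plcg1* and *Themis*.

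Over the wider pathway, 67 genes were tested and limma called 0 at an adjusted p under 0.05, with 5 at an unadjusted p under 0.05, against 642 of the 12009 genes. The log2 difference was below 0 for 55 and above 0 for 12, against 49.9% of all genes below 0, and the median was −0.36. Both CD4Cre-labelled libraries were lower for 26, against 18.6% of all genes, and higher for 4, against 18.4%. These counts are of FPKM as deposited and include the 5 T cell genes used for scaling. They were not repeated after that scaling, which moved the median of all genes to 0.38. Among 11 genes of the receptor complex and its kinases, *Zap70* had a difference of −0.55, whereas *Syk*, the relative of *Zap70*, had 0.55 and *Tec* 0.03. *Syk* was at only 2.69 to 5.24 FPKM, and *Zap70* was 41.4 to 111 times as high. Among 17 adaptors and exchange factors 14 were negative, with *Trat1*, a receptor-associated adaptor, at −0.73 and *Rhoh*, a GTPase that recruits Zap70, at −0.67. *Nck2*, an adaptor to the actin machinery, had 0.53 and *Fyb* 0.08. Among 22 phosphatases and other negative regulators 19 were negative, and *Cd5* was the only gene of the list past 1, at −1.09 (SE 1.01), followed by *Cd6* at −0.98 (SE 1.05). For both the genotypes overlapped, and only CD4Cre-labelled replicate 3 lay below both controls, at 3.38 FPKM for *Cd5* and 3.84 FPKM for *Cd6*. CD4Cre-labelled replicate 1 was at 37.9 and 42.5 FPKM. The ubiquitin ligase *Cbl* had 0.11 and the diacylglycerol kinase *Dgka* 0.09. Of 17 genes of the distal steps 13 were negative, with the transcription factor *Nfatc2* at −0.58 and the calcium sensor *Stim1* at −0.52. The calcineurin subunit *Ppp3ca* had 0.32. Of 12 relatives tested 7 were negative and 5 positive, with a median of −0.074, 5 lower in both libraries and 4 higher in both. *Plcg2* had −0.58 and *Matk* −0.55, while *Yes1*, a Src family kinase of most tissues, had 1.5 (SE 0.78) and *Blnk*, the B cell counterpart of *Lcp2*, 1.21. For *Yes1* the genotypes overlapped, at 0.47 and 5.09 FPKM in the controls and 4.48 and 12.0 FPKM in the CD4Cre-labelled libraries. Its difference thus leaned on the low value of control replicate 1.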

How the data were processed

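Deposited values were FPKM, 1 table per library. Per the labels and methods of the authors, TCRαβ+CD8αα+ IELs were sorted from 3 pooled mice per library, total RNA was sequenced, reads were mapped with HISAT and Bowtie2 2.2.5 to mm10 and the authors quantified genes with RSEM 1.2.8. FPKM are already scaled to transcript length and mapped fragments, so read depth, and with it counting error, is unknown, and a gene's value falls when other RNA rises. Strandedness and the floxed exons are not given in the sources used here. FPKM totals were 578491 to 646671.

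Here Entrez identifiers were matched to RefSeq of GRCm38.p6 (18467 matched, 114 did not). The 12009 genes that reached 1 FPKM in 2 or more libraries were compared as log2(FPKM + 1), CD4Cre-labelled against control, by the moderated linear model of limma 3.58.1 under R 4.3.3 (trended prior variance, Benjamini-Hochberg adjustment). The pseudocount of 1 understates changes of low genes. Ratios were compared by exact permutation. Tables and figures were made with Python 3.11.15, pandas 2.3.3 and matplotlib 3.10.9. The members and gene lists were chosen with earlier results of these data known. Named pathway genes were those with the lowest and highest log2 differences in each list, some of which are not reported here. Libraries were grouped by label. Alternatives were other pseudocounts and filters, other scalings, limma without a trend, an epithelial covariate, a replicate block and leaving out each library.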

Additional observations from a re-analysis of the deposited data

How the results depend on the processing

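Genes past a log2 difference of 1 (797) were 1381 and 1451 with pseudocounts of 0.1 and 0.01, 1488 after scaling to the T cell genes, 450 with the epithelial covariate and 364 to 1577 on leaving out each library. Members past 1 numbered 0 to 3 on leaving out libraries: *Fyn*, *Lat* and *Themis* without CD4Cre-labelled replicate 1, and *Themis* without replicate 3. With the replicate block, limma called 1019 genes (0 members, although 4 members, and 2736 genes in all, were at an unadjusted p under 0.05, the lowest of the members being adjusted p = 0.061 for *Ptpn22* and 0.064 for *Lck*), with the replicate block and T cell scaling 2715 (0 members, 1488 past 1) and with the covariate 104. Same-numbered libraries deviated together (Pearson 0.56 and Spearman 0.54 across genes, which are not independent replicates), but the labels do not say that a number marks a shared batch. T cell scaling, with or without the block, turned the median of the members to 0.015 and the differences of *Fyn* (0.015), *Lat* (0.015), *Plcg1* (0.025), *Ptpn6* (0.071), *Csk* (0.026) and *Kdm6b* (0.22). The covariate turned *Fyn* (0.49), *Lat* (0.94) and *Kdm6b* (0.12), and quantile normalization *Themis* (−0.026). Leaving out libraries gave −1.10 to 0.32 for *Fyn*, −1.61 to 0.81 for *Lat*, −1.01 to 1.26 for *Themis* and −0.52 to 0.16 for *Kdm6b*. CD4Cre-labelled replicate 1 against control replicate 3 alone, chosen after seeing the data, gave 0.66 for *Fyn*, 1.21 for *Lat*, 0.046 for *Plcg1* and 0.18 for *Kdm6b*. *Lck*, *Lcp2* and *Ptpn22* stayed negative in all 16 alternatives, at −0.88 to −0.073, −0.86 to −0.0086 and −0.82 to −0.10. *Themis* could not be fitted with a minimum of 5 FPKM. The causes were not tested. Depth is unknown and limits low genes such as *Themis* most.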

Other observations

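The 5 genes whose profile over the 4 libraries came nearest to the mean of the 9 members, by Euclidean distance of centred log2(FPKM + 1) values, were *Slfn8*, *Ppfia1*, *Sulf2*, *Trim33* and *Tab2* (distances 0.011 to 0.067, against a median of 0.92 over genes tested). *Slfn8* was at 8.0 and 6.38 FPKM in the controls and at 8.08 and 3.44 FPKM in the CD4Cre-labelled libraries. CD4Cre-labelled replicate 1 was thus level with control replicate 1, whereas for 6 of the 9 members it was within 15% of control replicate 3. The mean profile therefore does not describe most members. With 4 libraries many profiles lie close, and this is a description only. Nearest to *Lat* were *Il18rap*, *1500009L16Rik*, *Gm8369*, *Sh2d1a* and *Podnl1*, chosen after the values were seen. *Il18rap*, a subunit of the interleukin receptor for IL-18, was at 7.39 and 3.89 FPKM in the controls and 10.4 and 1.33 FPKM in the CD4Cre-labelled libraries. *Sh2d1a*, an adaptor of SLAM family receptors, was at 27.0, 14, 40.3 and 6.07 FPKM. Nearest to *Fyn* was *Jak2*, a cytokine receptor kinase, at 35.6, 21.1, 35.1 and 12.3 FPKM.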
